A study of Homo sapiens with 24 samples.

Results

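MCL1 and BMF encode opposing members of the BCL-2 family. They were taken by their gene symbols from the deposited tables, where both are present, and are 2 of the 9822 genes tested. The libraries came from MOLT4, an established human T-cell acute lymphoblastic leukaemia line. Cells received SK-3-91, named by the series as a pan-kinase degrader, for 1, 4 or 8 h, or the solvent DMSO for 1, 4 or 8 h, with 4 libraries in each of the 6 groups. A degrader binds its target and a ubiquitin ligase at once, so that the target is marked for destruction. The sources used here give no dose of SK-3-91. All groups were the same line, and the labels do not state whether the replicates were grown apart, so p-values reflect only the spread among these libraries, which may be technical.

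BCL-2 family proteins decide whether the outer mitochondrial membrane is breached during apoptosis. Guardians such as MCL1 hold back the effectors BAX and BAK1. BH3-only proteins such as BMF bind the guardians through a short helix, the BH3 domain, and so release the effectors. MCL1 mRNA and protein are both short-lived, and MCL1 is needed for the survival of developing T cells. BMF can be held on myosin V motors through the dynein light chain DYNLL2.

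Both members encode a BH3 domain, and the coding stretch around its core is shown because it is the feature that the guardian and the BH3-only gene share. The core searched for was leucine, 3 residues of any kind, glycine or alanine, then aspartate. The stretches are from GENCODE release 29 transcripts, 5′ to 3′ along the coding strand, with the codons of the leucine, of the glycine or alanine and of the aspartate in capitals:
MCL1: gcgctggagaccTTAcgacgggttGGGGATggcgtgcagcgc
BMF: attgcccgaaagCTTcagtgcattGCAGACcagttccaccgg
The core occurred once, at residues 213 to 218 of the 350 residues of transcript MCL1-202 and at residues 137 to 142 of the 184 residues of BMF-201. It was present in 3 of 3 complete coding transcripts of MCL1, including the 2-exon MCL1-201, which encodes the short form known for promoting death, and in 4 of 7 of BMF. The counts are per gene, so these forms were not told apart. MCL1 lies on chromosome 1 and BMF on chromosome 15. No MCL1 exon base lay in an exon of the opposite strand, whereas 8.46% of BMF exon bases lay in exons of BMF-AS1. The sources used here do not say whether the counting used strand.

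Fewer reads were counted in SK-3-91 than in DMSO at each time. These totals cover only the 9822 genes tested, and the numbers of sequenced reads were not examined. Counted reads per library, in megareads (M), ranged from 13.574 to 13.647 M in SK-3-91 and from 14.008 to 14.312 M in DMSO at 1 h. At 4 h they ranged from 10.644 to 10.87 M in SK-3-91 and from 14.273 to 14.55 M in DMSO. At 8 h they ranged from 6.863 to 8.963 M in SK-3-91 and from 13.567 to 14.626 M in DMSO. Levels below are counts per megaread (CPM) scaled by TMM factors. They are relative levels, neither plain shares of the counted reads nor amounts per cell. At 8 h, MCL1 in SK-3-91 replicate 1 was 355 CPM unscaled and 444 CPM scaled. In DMSO replicate 1 it was 216 CPM unscaled and 199 CPM scaled. Counted totals do not by themselves measure the number of cells or the RNA per cell, and bulk libraries cannot tell these apart. The T-cell identity of the line was seen in all groups: 14 of 15 T-lineage markers were measured, with a summed level of 4780 to 5624 CPM over the 12 SK-3-91 libraries and 4423 to 5195 CPM over the 12 DMSO libraries. At 8 h 4 of these 14 were called higher and 9 lower, where 41.3% of all genes were called higher and 48.1% lower. The sum thus hides changes in both directions. At 8 h CD3E averaged 2468 CPM in SK-3-91 and 1112 CPM in DMSO, and CD2 averaged 7.05 CPM in SK-3-91 and 95.6 CPM in DMSO. Of the other markers, CD79A of the 4 B-cell markers and PECAM1 of the 4 fibroblast or endothelial markers were measured. At 8 h CD79A stood at 23.3 to 30.5 CPM in SK-3-91 and 6.35 to 10.4 CPM in DMSO, and PECAM1 at 15.7 to 20.8 CPM in SK-3-91 and 42.7 to 43.7 CPM in DMSO. The part of the counted totals and of these markers in the results for MCL1 and BMF was not tested. Of the 4 myeloid, 3 erythroid and 4 epithelial markers listed, 0 were measured. Without TMM factors the log2 fold changes of all genes shift down together, by the difference in mean log2 factor, which was -0.023, -0.30 and -0.43 at 1, 4 and 8 h.

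MCL1 mRNA was 1.99-fold lower in SK-3-91 than in DMSO at 1 h, 1.21-fold lower at 4 h and 2.13-fold higher at 8 h. At 1 h MCL1 measured 95.5, 101, 98.6 and 100.5 CPM in the SK-3-91 libraries, against 201, 189, 198 and 198 CPM in DMSO. All 4 treated libraries lay far below all 4 DMSO libraries. The log2 fold change was -0.99 ± 0.04 (SE, n = 4 per group; edgeR quasi-likelihood test, Benjamini-Hochberg adjusted p = 1.6e-21). At this time 54.3% of the 9822 genes passed the threshold of an adjusted p of 0.05, 29.4% as lower, 28.2% had all 4 treated libraries below all DMSO libraries, and 3.25% were called at least 2-fold lower. Only 3.35% of genes had a lower fold change than MCL1.

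At 4 h MCL1 measured 163, 159.9, 177 and 186 CPM in SK-3-91 and 208, 215, 205 and 205 CPM in DMSO. The groups were again fully separate, but the gap was smaller. The log2 fold change was -0.28 ± 0.04 (edgeR adjusted p = 2.2e-07). A call at this time was common: 87.9% of genes passed and 45.9% passed as lower, 43.7% had all 4 treated libraries below, and MCL1 stood near the middle of all genes, with 40.4% below it. Without scaling factors the log2 fold change was -0.58.

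At 8 h MCL1 measured 444, 435, 391 and 439 CPM in SK-3-91 and 199, 202, 208 and 193 CPM in DMSO. Every treated library now lay above every DMSO library. The log2 fold change was 1.09 ± 0.04 (edgeR adjusted p = 3.4e-25). At this time 89.4% of genes passed, 41.3% as higher, 38.8% had all 4 treated libraries above, and 16.8% were called at least 2-fold higher. The MCL1 reads themselves numbered 3158, 3150, 2120 and 3028 in SK-3-91 and 3098, 3210, 3060 and 2989 in DMSO. The raw counts thus overlapped between the groups, and it was the share of a smaller total that was higher. Without scaling factors, which uses those totals alone, the log2 fold change was 0.66 (edgeR adjusted p = 4.9e-17).

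In DMSO the MCL1 means differed little beside the changes in SK-3-91. They were 196 ± 4.89, 208 ± 4.58 and 200.4 ± 6.52 CPM at 1, 4 and 8 h (SD, n = 4). Within DMSO the log2 fold change was 0.09 ± 0.04 for 4 h over 1 h (edgeR adjusted p = 0.11) and -0.06 ± 0.04 for 8 h over 4 h (adjusted p = 0.32), where 35.1% and 30.7% of genes passed. With only the 8 compared libraries in the fit, the first of these passed at 0.10 (edgeR adjusted p = 0.017). Within SK-3-91 MCL1 rose at each step, by 0.80 ± 0.05 for 4 h over 1 h and by 1.32 ± 0.04 for 8 h over 4 h (edgeR adjusted p = 3.7e-19 and 5.1e-26), where 83.8% and 73.4% of genes passed, 41.1% and 38.9% as higher. Over the 6 groups the mean levels ordered as SK-3-91 at 1 h, SK-3-91 at 4 h, DMSO at 1 h, DMSO at 8 h, DMSO at 4 h and SK-3-91 at 8 h. The 3 DMSO groups overlapped with their neighbours in this order, and every other neighbouring pair was separate.

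BMF was a low-level transcript that showed no call at 1 h and then fell steeply. At 1 h BMF measured 3.87, 3.34, 3.55 and 4.19 CPM in SK-3-91, against 5.28, 2.80, 3.52 and 4.23 CPM in DMSO. The DMSO libraries spanned the treated ones. The log2 fold change was -0.08 ± 0.17 (edgeR adjusted p = 0.7), and without DMSO replicate 1 it turned to 0.089. These levels rest on 49 to 61 reads per library in SK-3-91 and 43 to 82 in DMSO.

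At 4 h BMF measured 1.15, 0.519, 0.938 and 1.94 CPM in SK-3-91, against 4.88, 2.65, 3.38 and 3.19 CPM in DMSO. All 4 treated libraries were below all 4 DMSO libraries, as for 43.7% of all genes, and the spread within each group was wide. The log2 fold change was -1.62 ± 0.26 (edgeR adjusted p = 3.7e-07), which is 3.07-fold lower. Of all genes 8.47% had a lower fold change, and 18.2% were called at least 2-fold lower. Summed over libraries, 44 reads in SK-3-91 stood against 224 in DMSO, a level 3.09-fold lower with a 95% exact counting interval of 2.23 to 4.38.

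At 8 h BMF measured 0.422, 0.690, 0.369 and 0.580 CPM in SK-3-91, against 5.13, 4.91, 4.69 and 4.90 CPM in DMSO. The groups lay far apart, and the DMSO libraries were close together at this time. The log2 fold change was -3.20 ± 0.34 (edgeR adjusted p = 1.6e-11), which is 9.21-fold lower. Of all genes 1.17% had a lower fold change, 45.1% had all 4 treated libraries below, and 23.5% were called at least 2-fold lower. Only 3, 5, 2 and 4 BMF reads were counted in the SK-3-91 libraries, against 80, 78, 69 and 76 in DMSO. The summed level was 9.36-fold lower with a 95% exact counting interval of 5.49 to 17.3, which covers counting error only.

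**Figure D1:**
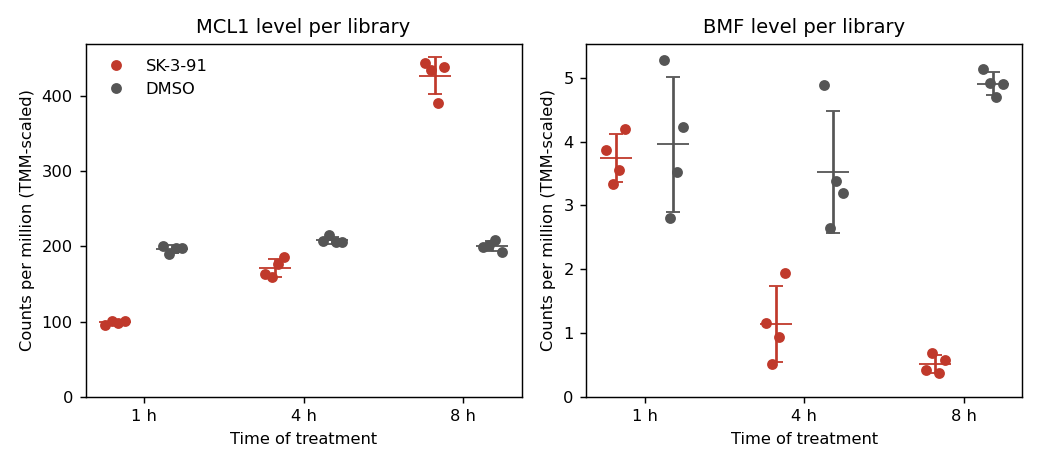
Level of MCL1 (left) and BMF (right) in TMM-scaled counts per megaread (CPM), on linear axes from 0, at 1, 4 and 8 h. Points are single libraries, with SK-3-91 in red and DMSO in grey, and bars show the mean and SD of 4 libraries. MCL1 averaged 98.8, 172 and 427 CPM in SK-3-91 and stayed between 196 and 208 CPM in DMSO, whereas BMF averaged 3.74, 1.14 and 0.515 CPM in SK-3-91 and 3.96, 3.52 and 4.91 CPM in DMSO.

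In DMSO the BMF libraries were spread widely at 1 and 4 h. The means were 3.96 ± 1.06, 3.52 ± 0.957 and 4.91 ± 0.178 CPM at 1, 4 and 8 h (SD, n = 4). Within DMSO the log2 fold change was -0.17 ± 0.17 for 4 h over 1 h (edgeR adjusted p = 0.49) and 0.48 ± 0.16 for 8 h over 4 h (adjusted p = 0.025), where 15.9% of genes were called higher. The second call was lost without DMSO 4 h replicate 2, 3 or 4 or DMSO 8 h replicate 1, with values of 0.36, 0.46, 0.43 and 0.46. Within SK-3-91 BMF fell by 1.70 ± 0.26 for 4 h over 1 h (edgeR adjusted p = 1.6e-07) and by 1.11 ± 0.49 for 8 h over 4 h (adjusted p = 0.041), where 42.7% and 34.5% of genes were called lower. The last of these did not pass without SK-3-91 4 h replicate 1 or 4 or SK-3-91 8 h replicate 1, 3 or 4, with values from -1.16 to -0.72. In the order of mean levels SK-3-91 at 8 h and SK-3-91 at 4 h came lowest and overlapped each other. They were followed, apart from them, by DMSO at 4 h, SK-3-91 at 1 h, DMSO at 1 h and DMSO at 8 h, where each overlapped its neighbour.

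The responses themselves differed between times for both genes. From 1 to 4 h the log2 fold change of MCL1 moved by 0.71 ± 0.06 (edgeR adjusted p = 2.5e-13) and that of BMF by -1.54 ± 0.32 (adjusted p = 3.8e-05), where 80.4% of genes passed, 40.6% upward and 39.9% downward. From 4 to 8 h MCL1 moved by a further 1.37 ± 0.06 (edgeR adjusted p = 1.6e-21) and BMF by -1.58 ± 0.51 (adjusted p = 0.0064), where 68.6% passed, 35.6% upward and 33% downward. Only 0.54% of genes moved upward by more than MCL1 between 4 and 8 h, and 0.845% moved downward by more than BMF. Without SK-3-91 4 h replicate 4, which had the highest BMF level of its group, the second BMF step was -1.19 (edgeR adjusted p = 0.053). The calls lower, lower and higher at 1, 4 and 8 h, as for MCL1, were found in 2.28% of genes. No call at 1 h followed by lower at both later times, as for BMF, was found in 18.5%.

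**Figure D2:**
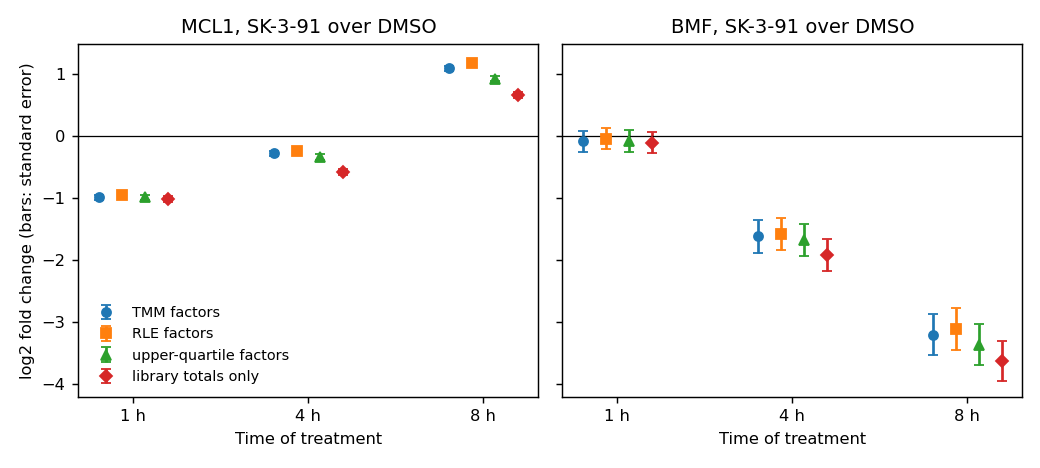
log2 fold change of MCL1 (left) and BMF (right), SK-3-91 over DMSO, at 1, 4 and 8 h under 4 choices of library scaling, with standard errors as bars. MCL1 was below 0 at 1 and 4 h and above 0 at 8 h under each choice, from 0.66 to 1.19 at 8 h, and BMF was between -3.63 and -3.11 at 8 h.

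The ratio of MCL1 to BMF reads within a library does not depend on library scaling. At 1 h there were 24.0 to 30.2 MCL1 reads per BMF read in SK-3-91 (median 26.2) and 38.0 to 67.7 in DMSO (median 51.5). At 4 h the ratio was 95.8 to 308 in SK-3-91 (median 165) and 42.6 to 81.3 in DMSO (median 62.6). At 8 h it was 630.0 to 1060 in SK-3-91 (median 905) and 38.7 to 44.3 in DMSO (median 40.2). The groups did not overlap at any time: treated libraries were lower at 1 h and higher at 4 and 8 h. How often other pairs of genes separate likewise was not tested, and the pair was chosen with earlier results of these data known. Of single genes, 54.3%, 87.9% and 89.4% passed in edgeR at 1, 4 and 8 h. The log2 ratio in SK-3-91 minus that in DMSO was -0.94 ± 0.19, 1.40 ± 0.38 and 4.18 ± 0.16 at 1, 4 and 8 h (SE). Each had p = 0.0286 in an exact two-sided permutation test (n = 4 against 4, 3 comparisons, adjusted p = 0.029), the smallest p this design allows. Per kilobase of the deposited gene width, MCL1 averaged 103 and BMF 0.105 CPM per kb in SK-3-91 at 8 h, against 48.3 and 1.00 CPM per kb in DMSO.

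**Figure D3:**
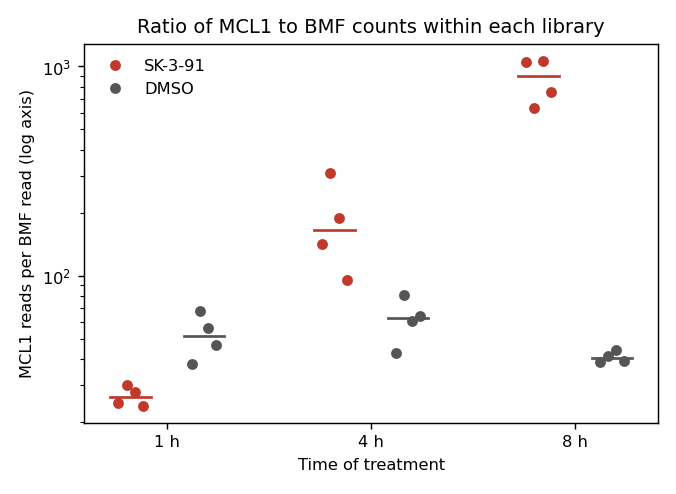
MCL1 reads per BMF read in each library on a log axis, by time, with SK-3-91 in red and DMSO in grey and a line at the median of 4 libraries. The ratio in SK-3-91 had medians of 26.2, 165 and 905 at 1, 4 and 8 h, and in DMSO it stayed between 38.0 and 81.3.

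Of the other guardians, BCL2 and BCL2L1 were lower at all 3 times. BCL2 averaged 28.3 ± 2.99 CPM in SK-3-91 and 37.8 ± 3.13 CPM in DMSO at 1 h (SD, n = 4), 15.6 ± 1.65 CPM in SK-3-91 and 33.0 ± 2.10 CPM in DMSO at 4 h, and 17.4 ± 4.56 CPM in SK-3-91 and 34.0 ± 2.66 CPM in DMSO at 8 h. All of its treated libraries were below all DMSO libraries at each time, as for 28.2%, 43.7% and 45.1% of all genes at 1, 4 and 8 h. The log2 fold changes of BCL2 were -0.42, -1.08 and -0.96. BCL2L1, which encodes BCL-XL, changed by -0.23, -0.73 and -0.59. Its count is uncertain, as 43.0% of its exonic sequence overlaps opposite-strand exons of ABALON. At 8 h both of these guardians were lower and MCL1 was higher. Of the 6 guardians listed 3 were measured, and BCL2L2, BCL2A1 and BCL2L10 were not among them.

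Among the BH3-only genes BMF had the lowest log2 fold change at 4 and 8 h. BCL2L11, which encodes BIM, fell at all times with a shrinking gap, by 0.74 ± 0.05, 0.58 ± 0.05 and 0.22 ± 0.05 on the log2 scale at 1, 4 and 8 h. PMAIP1, which encodes NOXA, a BH3-only protein that binds MCL1 and promotes its breakdown, was 44.5 ± 1.75 CPM in SK-3-91 and 57.7 ± 2.45 CPM in DMSO at 1 h. It was 80.7 ± 4.49 CPM in SK-3-91 and 54.0 ± 4.14 CPM in DMSO at 4 h, and 80.6 ± 5.87 CPM in SK-3-91 and 55.2 ± 1.95 CPM in DMSO at 8 h. PMAIP1 thus fell at 1 h (log2 fold change -0.37) and rose at 4 and 8 h (0.58 and 0.55). BID, which links death receptors to mitochondria, rose by 0.16, 0.34 and 0.28, though its 8 h value was -0.15 without scaling factors. BAD rose by 0.20 and 0.31 at 1 and 4 h and fell by 0.55 at 8 h, with an uncertain count, as 23.7% of its exonic sequence overlaps GPR137. BIK was called only at 8 h, at -0.53 ± 0.15.

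The mitophagy genes BNIP3 and BNIP3L, atypical BH3 genes, diverged. BNIP3 was 15.8 ± 1.87 CPM in SK-3-91 and 50.3 ± 3.08 CPM in DMSO at 8 h (log2 fold change -1.67 ± 0.08). At 1 h it was 16.1 ± 1.38 CPM in SK-3-91 and 12.8 ± 0.169 CPM in DMSO, so the later gap went with a rising level in DMSO. BNIP3L rose by 0.93 ± 0.04 at 4 h and fell by 0.10 ± 0.05 at 8 h, where its libraries overlapped. Of the effectors, BAK1, a direct partner of MCL1, was not called at 1 h (0.08 ± 0.07) and fell by 1.27 ± 0.08 and 1.20 ± 0.08 at 4 and 8 h. BAX rose by 0.16, 0.39 and 0.11, the last of which was -0.32 without scaling factors and -0.055 with upper-quartile factors. BCL2L12 and BCL2L13 were called at 1 h (0.32 and -0.11) and 4 h (0.49 and -0.37) and not at 8 h (-0.11 and 0.02). The count of BCL2L12 is uncertain, as 33.1% of its exonic sequence overlaps IRF3.

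In all, 15 of the 23 listed family genes were measured, MCL1 and BMF included. Called higher were 6, 6 and 4 at 1, 4 and 8 h, and called lower were 6, 8 and 9, while 24.9%, 42% and 41.3% of all genes were called higher and 29.4%, 45.9% and 48.1% lower. Without scaling factors 3 family genes were called higher at 4 h and 2 at 8 h. Of the calls over all genes with TMM factors, 47.7% were higher and 52.3% lower at 4 h and 46.2% and 53.8% at 8 h; without them the shares were 33.3% and 66.7% at 4 h and 31.1% and 68.9% at 8 h. The median log2 fold change of the 15 was 0.07, -0.28 and -0.22, against 0.01, -0.05 and -0.11 over all genes. BCL2L11 shares 11.0%, BAK1 17.8% and BNIP3 18.6% of their 32-base words with other genes, which leaves a lesser doubt about their counts.

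**Figure D4:**
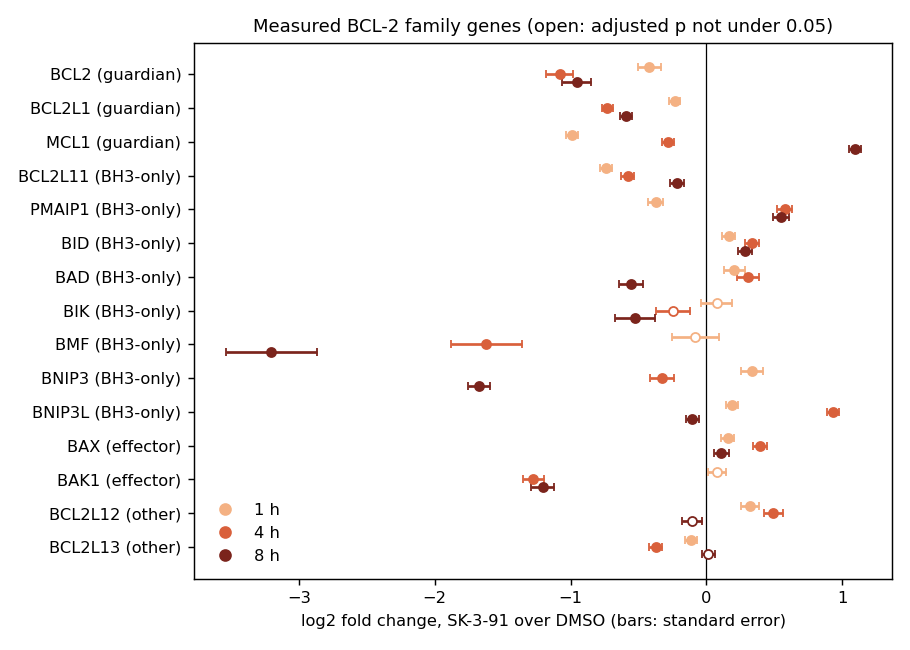
log2 fold change of the 15 measured BCL-2 family genes, SK-3-91 over DMSO, at 1, 4 and 8 h from light to dark, with standard errors as bars and open points where the adjusted p was not under 0.05. MCL1 runs from -0.99 at 1 h to 1.09 at 8 h, and BMF from -0.08 to -3.20, the lowest value plotted.

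Genes that act on MCL1 protein or hold BMF were mixed in direction. Of 20 listed, 16 were measured; 6, 7 and 9 were higher and 5, 6 and 6 lower at 1, 4 and 8 h, beside 24.9%, 42% and 41.3% of all genes higher and 29.4%, 45.9% and 48.1% lower. Their median log2 fold changes were 0.03, 0.11 and 0.12, against 0.01, -0.05 and -0.11 over all genes. Without scaling factors 4 were called higher at 4 h. FBXW7, the receptor of a ubiquitin ligase that targets MCL1, changed by -0.64, 0.19 and 1.08, each with an SE of 0.05. BTRC, another such receptor, changed by -0.35, 0.18 and 0.92. GSK3B, the kinase that marks MCL1 for these ligases, changed by -0.23, 0.30 and 0.83. These 3 genes were called lower at 1 h and higher at 4 and 8 h, as were 5.75% of all genes, whereas MCL1 was called lower at 4 h. Of the 12 measured MCL1 turnover genes, 6 were called higher and 6 lower at 8 h. Among the lower, HUWE1 and GSK3A were chosen after their values were seen. At 8 h HUWE1 was at -0.63, and GSK3A averaged 91.3 CPM in SK-3-91 and 186 CPM in DMSO. USP13, a deubiquitinase of MCL1, fell by 0.12, 0.86 and 1.23. TPT1, which encodes a protein that binds MCL1, rose by 0.23, 1.10 and 1.27, and XRCC6, uncertain because it shares 27.0% of its words with other genes, was at 0.83 at 4 h. DYNLL2, the anchor of BMF, rose by 0.17, 0.44 and 0.68; it was chosen after its values were seen, as the partner named above.

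Of the genes downstream of the mitochondria and at death receptors, more were lower than higher. Of 27 listed, 23 were measured; 5, 4 and 6 were higher and 12, 18 and 16 lower at 1, 4 and 8 h, beside 24.9%, 42% and 41.3% of all genes higher and 29.4%, 45.9% and 48.1% lower. Their median log2 fold changes were -0.16, -0.66 and -0.72, against 0.01, -0.05 and -0.11 over all genes. Without scaling factors 3 were called higher at 1 h and 2 at 4 h. The 1 h count was also 3 without DMSO replicate 3 or SK-3-91 replicate 1 or 4, and the 4 h count was also 2 without DMSO or SK-3-91 replicate 4. Of 12 apoptosome and caspase genes, 9 were lower and 3 higher at 8 h. Among the lower, HTRA2 and ENDOG have uncertain counts, as 36.92% and 39.25% of their exonic sequence overlaps opposite-strand exons. AIFM1, a mitochondrial oxidoreductase gene, was at 0.18 at 1 h, -0.43 at 4 h and -2.17 ± 0.06 at 8 h. Of 6 death receptor genes, 6 were lower at 8 h, when 48.1% of all genes were. Among these 6, CFLAR is uncertain because it shares 22.66% of its words with other genes. CASP8, listed with the caspases and not with these 6, was at -0.59 at 1 h, 0.15 at 4 h and 0.73 at 8 h. It was called each time, and was chosen after its values were seen. TNFRSF1A, a TNF receptor gene, was at -0.69, -2.82 and -3.02 over the time course. The kinase gene RIPK1 was at -0.59 at 1 h, -1.54 at 4 h and -1.76 at 8 h. FADD, the adaptor of death receptors, changed by -1.29, -3.46 and -2.69 with an uncertain count, as 54.9% of its exonic sequence overlaps an antisense gene. Of 5 inhibitor of apoptosis genes, 1, 2 and 3 were higher and 4, 3 and 1 lower at 1, 4 and 8 h, with medians of -0.33, -0.36 and 0.21. BIRC3 changed by -1.25 ± 0.09 at 1 h, by -0.98 ± 0.09 at 4 h and by -0.29 ± 0.09 at 8 h, where its libraries overlapped. BIRC2 and BIRC5, chosen after their values were seen, rose by 1.36 ± 0.05 and 0.90 ± 0.05 at 8 h.

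Over the 6 group means of log2 CPM, the genes whose course was most like that of MCL1, among 9187 with a mean of at least 5 CPM, were PIK3C2A, TRIM35, CCDC88C, ACBD3 and AMACR, with Pearson's r from 0.991 to 0.996. PIK3C2A, a lipid kinase gene, changed by -0.68, -0.15 and 0.68 at 1, 4 and 8 h. The genes most like BMF were LBH, RRAGD, TNFAIP8, ST6GALNAC4 and TMEM39B, with r from 0.998 to 0.999. ST6GALNAC4, a sialyltransferase gene, changed by 0.04, -1.89 and -3.12, and TMEM39B by only 0.02, -0.55 and -1.01, since r does not depend on size. Between MCL1 and BMF r was -0.62. All of these are descriptions over 6 points that share the same 24 libraries.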

How the data were processed

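MOLT4 cells were profiled by RNA-seq in 24 libraries, 4 in each of 6 groups, with single-end reads of the BGISEQ-500 per the labels' protocols. The deposited count table holds raw counts per Entrez gene for 9822 genes, 9818 of them with a symbol. No gene averaged under 32.04 counts, so low genes had been left out before deposit. The submitters' processing notes name edgeR and the build hg19. For the aligner, counter, strandedness and gene models nothing was given in the sources used. A deposited gene width, in bases, served only for levels per kilobase. The second deposited table holds log2 values: their antilog rose linearly with the count within each library, with an intercept of 1.10 to 1.16 and no effect of gene width, which shrinks the fold changes of low genes such as BMF. It was used as an alternative.

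The count test was edgeR's quasi-likelihood F test (version 4.0.16, R 4.3.3) with TMM factors and 1 mean per group across the 24 libraries. filterByExpr left out 0 genes, and Benjamini-Hochberg adjustment covered all genes, with a threshold of 0.05. Standard errors are those implied by F. The procedure was tested on simulated data in which few genes changed. That test cannot speak to the scaling here, since most genes were called at 4 and 8 h. Ratios within libraries had 0.5 added to each count. Gene structure and sequence came from GENCODE release 29 (GRCh38), of which no coordinates are given, and genes with 20% or more of opposite-strand exon bases or shared 32-base words are called uncertain. No 2 replicates agreed within counting noise. The members and lists were chosen with earlier results of these data known. Named were both members, all measured family genes, the 3 largest called changes of the other lists at each time, and the 5 genes most like each member. Alternatives were other scaling factors, no filter, DESeq2 1.42.0, limma-trend (3.58.1) on the deposited log2 values, only the compared libraries, a replicate block and leaving out each library.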

Additional observations from a re-analysis of the deposited data

Results flagged for a closer look

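The SK-3-91 effect on MCL1 and BMF was tested for a difference between times, and 4 of 4 tests passed in edgeR, as did 80.4% of all genes for 4 h minus 1 h and 68.6% for 8 h minus 4 h. The response of MCL1 differed between 4 and 1 h by 0.71 on the log2 scale and between 8 and 4 h by 1.37, upward both times, and 16.5% and 0.54% of genes moved upward by more. The response of BMF differed by -1.54 and by -1.58 over the same intervals, downward both times, and 6.14% and 0.845% of genes moved downward by more. In the 24 sets of 4 libraries examined, no library lay apart from the other 3 by a gap over 0.829 of the group's range. The sets covered MCL1 level, BMF level, their ratio and counted reads, and chance flags about 1 in 20 such sets. The largest gap, 0.825, was just under this limit, for MCL1 in SK-3-91 at 8 h. There replicate 3 was lowest at 391 CPM, and it also had the fewest counted reads (6.863 M).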

How the results depend on the processing

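Of 18 edgeR results for MCL1 and BMF, 18 kept their direction and side of the threshold under RLE, upper-quartile and no scaling factors, without the filter and with the replicate block. MCL1 within DMSO, 4 h over 1 h, passed with DESeq2 at 0.10 and with the compared libraries alone at 0.10. BMF within SK-3-91, 8 h over 4 h, was -0.044 and not called in limma-trend on the deposited log2 values, and was filtered out with the compared libraries alone. Without scaling factors the genes called higher were 3 for execution at 1 h, and at 4 h 3 for the BCL-2 family, 2 for execution and 4 for MCL1 turnover and BMF partners, and 2 for the family at 8 h. limma-trend gave the same counts except 1 for the family at 8 h, and upper-quartile factors gave 2 for execution at 4 h. At 8 h BAX was -0.055 and BCL2L13 -0.15 with upper-quartile factors. Without scaling factors BID, BAX and BCL2L13 were -0.15, -0.32 and -0.42, and in limma-trend -0.14, -0.26 and -0.36.

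Same-numbered SK-3-91 and DMSO libraries did not deviate together (r from -0.12 to 0.02 over 12 pairs, 0 treated libraries closest to their own number). No pairing by number was thus seen, but r near 0 cannot show that the samples were unpaired. The paired sign-flip permutation (replicate block) left the log2 ratio of MCL1 to BMF at -0.94, 1.40 and 4.18, with an exact p of 0.12 that 4 pairs cannot go below.

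Leaving out each library, the log2 ratio ranged from -1.08 to -0.81 at 1 h, 1.13 to 1.66 at 4 h and 4.09 to 4.30 at 8 h; 4 against 3 libraries cannot pass. BMF ranged from -0.22 to 0.089 at 1 h (above 0 without DMSO replicate 1), from -0.37 to 0.0049 within DMSO for 4 h over 1 h, from 0.36 to 0.68 for 8 h over 4 h, and from -1.35 to -0.72 within SK-3-91 for 8 h over 4 h. Its change in response from 4 to 8 h ranged from -1.82 to -1.19. Execution genes called higher ranged from 3 to 5 at 1 h and from 2 to 4 at 4 h. BCL2L13 at 8 h ranged from -0.021, without SK-3-91 replicate 2, to 0.041. Low counts limit BMF, with at most 5 reads in any SK-3-91 library at 8 h.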
